A study of Mus musculus with 8 samples.

Results

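The genes described here encode the constant regions of antibodies, the J chain that joins antibodies into polymers, and the epithelial receptor that carries those polymers into the gut lumen. The members were 7 rows of the deposited gene table, chosen by symbol out of the 31053 genes of the series: Igha, Ighm, Ighd, Igkc, Iglc1, Jchain and Pigr. All 7 were found, each with the same Ensembl identifier in the GENCODE M21 annotation. The cells were isolated from the mucosa of the distal colon of 8-week-old mice, and transcript 3′ ends were sequenced by a droplet method that gives every captured transcript a unique molecular identifier (UMI). The 4 KO-labelled mice (2, 3, 6 and 7) carried floxed Spry2 with Cre driven by the promoter of Villin, a gene of the intestinal epithelium and not of B cells or plasma cells. The 4 WT-labelled mice (1, 4, 5 and 8) were Spry2-floxed littermates without Cre. Sprouty2, the product of Spry2, restrains receptor tyrosine kinase signalling, and the design asks how colonic cells differ when it is deleted in the epithelium. All members but Pigr were therefore measured mainly in cells that the labels do not describe as deleted.

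The matrix held 53080 cells, of which 1316 named as doublets by the authors were left out and 51764 kept. Total UMIs per mouse lay between 17.0 and 37.3 M. Of all barcodes, 356 occurred in more than 1 mouse. In the epithelium, Spry2 itself measured 10.4, 13.3, 15.7 and 49.3 CPM (UMI counts scaled to a library total of 1e+06) in KO-labelled mice 2, 3, 6 and 7, against 11.2, 17.6, 27.7 and 37.6 CPM in WT-labelled mice 1, 4, 5 and 8. The groups overlapped. Since only 3′ ends were read and the deleted part of the gene is not given in the sources used here, these values do not check the genotype, and the groups are called by their labels. The share of epithelial cells with 50% or more mitochondrial UMIs fell with the mouse number, between 11.1 and 79.6%, in both groups.

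An antibody consists of paired heavy and light chains. A B cell first makes IgM and IgD from 1 long transcript by splicing to Ighm or Ighd, and may later switch to Igha, which encodes the IgA heavy chain. The light chain is either kappa (Igkc) or lambda (Iglc1 to Iglc4), rarely both in 1 cell. In the gut, plasma cells secrete IgA joined into dimers by J chain, and the polymeric immunoglobulin receptor, encoded by Pigr, takes these from the basal to the luminal side of epithelial cells.

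The genes lie at 5 places in the mouse genome (GRCm38, the assembly called mm10, with GENCODE M21 annotation). On chromosome 12, on the minus strand, are Igha (113254830 to 113260236), Ighd (113406604 to 113416324) and Ighm (113418558 to 113422730). Igkc is on the plus strand of chromosome 6 (70726435 to 70726966), and Iglc1 on the minus strand of chromosome 16 (19061618 to 19062071). Jchain is on the minus strand of chromosome 5 (88519809 to 88527891) and Pigr on the plus strand of chromosome 1 (130826684 to 130852249). The secreted forms of Igha and Ighm end in a short tailpiece whose penultimate cysteine binds J chain, and Ighd has no such end. The last 60 coding bases of the secreted transcripts, stop codon included, show this difference, with the penultimate codon in capitals where it encodes cysteine.
Igha: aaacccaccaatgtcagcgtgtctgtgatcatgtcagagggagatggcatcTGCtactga
Ighm: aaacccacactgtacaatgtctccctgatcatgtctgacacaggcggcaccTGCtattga
Ighd: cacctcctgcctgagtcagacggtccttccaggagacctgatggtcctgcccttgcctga

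Lambda UMIs were counted on related constant genes, with Iglc2 and Iglc3 near copies, so the genes are also shown at their 3′ coding ends. These are the last 120 coding bases, stop codon included, of the GENCODE transcripts on the minus strand of chromosome 16 (Iglc1 at chr16:19061752-19061871, Iglc2 at chr16:19198536-19198655, Iglc3 at chr16:19065365-19065484), with bases that differ from Iglc1 in capitals.
Iglc1: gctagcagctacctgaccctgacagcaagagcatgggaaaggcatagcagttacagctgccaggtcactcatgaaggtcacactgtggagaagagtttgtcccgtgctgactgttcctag
Iglc2: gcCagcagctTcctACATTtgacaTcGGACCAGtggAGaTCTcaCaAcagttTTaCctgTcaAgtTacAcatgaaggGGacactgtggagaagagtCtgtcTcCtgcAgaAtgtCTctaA
Iglc3: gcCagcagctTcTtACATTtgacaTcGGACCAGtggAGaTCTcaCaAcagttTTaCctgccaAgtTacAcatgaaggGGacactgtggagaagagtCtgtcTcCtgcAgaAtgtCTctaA
Iglc1 shared 81 of the 120 bases with Iglc2 and 81 with Iglc3, whereas Iglc2 and Iglc3 shared 118. Over this stretch Iglc1 can be told from Iglc2 and Iglc3 (Iglc4 was not compared), but reads could be split wrongly between Iglc2 and Iglc3, whose values are uncertain one by one. The untranslated 3′ ends, which lie nearer to the 3′-end reads, were not compared.

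Each antibody gene had 1 main place among the authors' cell types. Plasma cells were 2.97% of the kept cells (1538) and held 97.3% of all Igha UMIs, 95.8% of Igkc, 94.5% of Iglc1 and 97.4% of Jchain. Mature B cells (12834, 24.8% of cells) held 85.9% of Ighm and 94.9% of Ighd UMIs. Epithelial cells (23787, 46.0% of cells) held 97.8% of Pigr UMIs. The levels by cell type show the same split across all 7 genes.

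**Figure D1:**
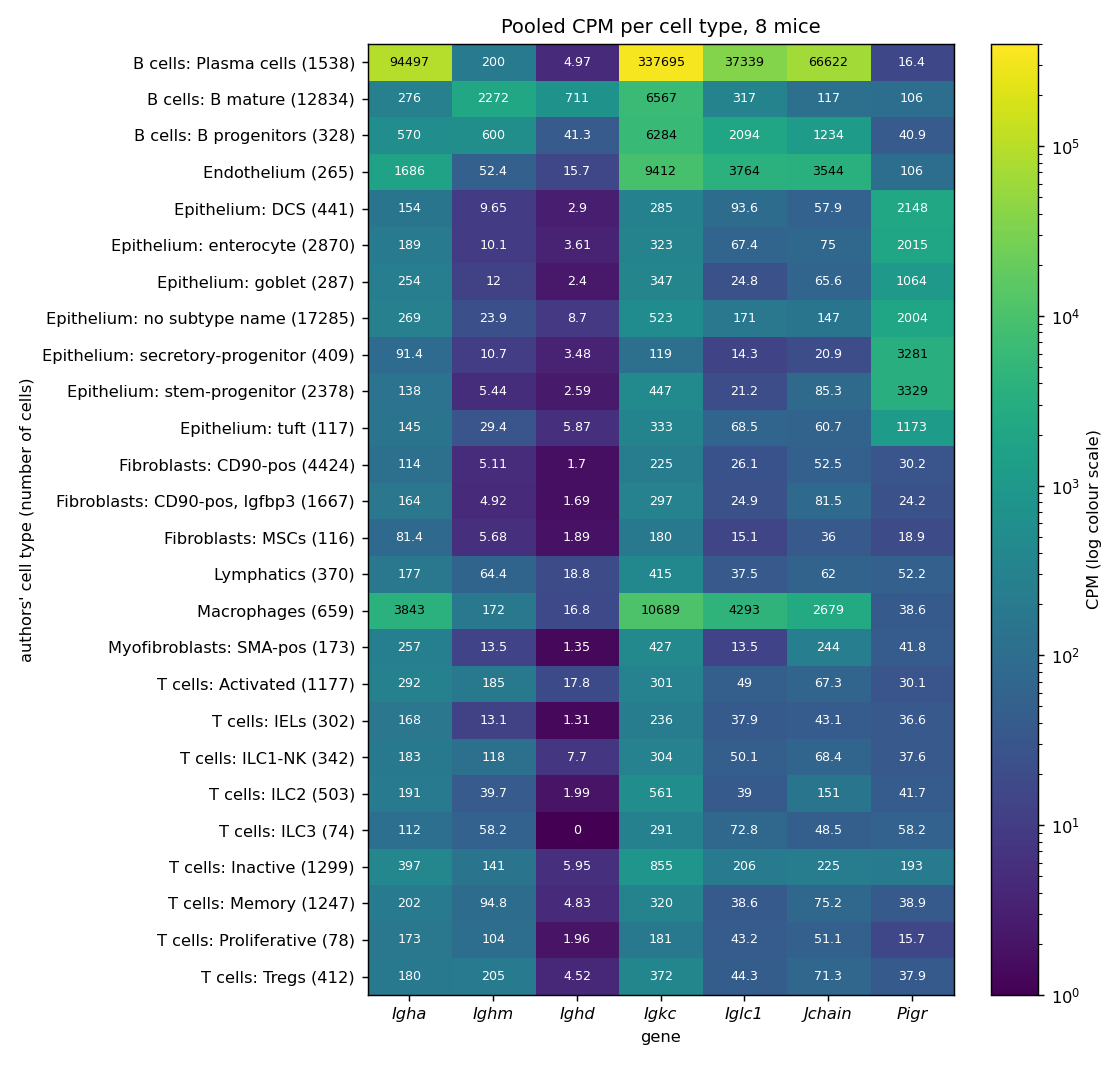
Pooled CPM over 8 mice (colour on a log scale, value in each cell of the grid) of the 7 genes (columns) in each authors' cell type of 50 or more cells (rows, number of cells in brackets, doublets left out). Igha, Igkc, Iglc1 and Jchain are brightest in plasma cells, Ighm and Ighd in mature B cells and Pigr in the epithelial rows, and the bright antibody values in macrophages and endothelium come from a few mixed droplets.

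The named cells carried their markers. Plasma cells carried Mzb1 at 2529 CPM, Xbp1 at 1431 CPM and Tnfrsf17, the receptor for plasma cell survival signals, at 215 CPM, against 0.2 CPM of Tnfrsf17 in mature B cells. Mature B cells carried Cd79a, a subunit of the B cell receptor, at 2674 CPM and Ms4a1, which encodes CD20, at 767 CPM. The authors' B progenitors (328 cells) did not look like early precursors by their markers. Rag1, needed for receptor gene rearrangement, and Igll1, part of the pre-B cell receptor, had no UMI there, which allows up to 1.19 CPM of each. S1pr2, a receptor of germinal centre B cells, was at 127 CPM in these cells and the proliferation gene Mki67 at 706 CPM. They are called B progenitors below only because the deposited table does so.

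In plasma cells, transcripts of the 6 antibody genes made up a median of 53.9% of all UMIs of a cell, with a 10th percentile of 28.3% and a 90th of 68.8%. The median by mouse was 56.6, 52.8, 55.2 and 52.0% in KO-labelled mice 2, 3, 6 and 7, against 53.4, 54.7, 58.4 and 47.9% in WT-labelled mice 1, 4, 5 and 8. Those values spread as widely within each group as between them. A plasma cell held a median of 12356 UMIs in all, 1133 of them from heavy-chain and 4443 from light-chain constant genes.

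Igha was the heavy chain of nearly every plasma cell. Of 1523 cells with at least 10 heavy-chain constant UMIs, 1489 had more from Igha than from any other heavy-chain gene, which is 97.8% (exact binomial 95% interval 96.9 to 98.4%). That interval covers counting error over the pooled cells and not the spread between mice. Ighg1 led in 22 cells, Ighg2b in 6, Ighm in 5 and Ighg2c in 1. The median cell took all of its heavy-chain UMIs from its leading gene, and 98.2% of the cells took over 90% from it, so that the calls were rarely ambiguous. By mouse, the Igha-led share was 97.8, 97.0, 96.5 and 98.1% in KO-labelled mice 2, 3, 6 and 7, against 99.1, 98.9, 97.8 and 97.5% in WT-labelled mice 1, 4, 5 and 8.

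The Igha level in plasma cells was 124669, 115101, 72983 and 82062 CPM in KO-labelled mice 2, 3, 6 and 7, against 132694, 88031, 103507 and 95306 CPM in WT-labelled mice 1, 4, 5 and 8. The ranges overlapped. Counts were summed per mouse and compared over all genes with edgeR's quasi-likelihood test and Benjamini-Hochberg adjustment, with a threshold of 0.05. The log2 difference of Igha, KO-labelled over WT-labelled, was -0.08 ± 0.26 (SE, 95% interval -0.64 to 0.48, edgeR adjusted p = 0.9999), and it was above 0 without KO-labelled mouse 6 (0.048) or 7 (0.033) or WT-labelled mouse 1 (0.079). Of 6879 genes tested in plasma cells, 0 were called (0%) by edgeR and 0 by DESeq2, and 192 had an unadjusted edgeR p under 0.05. Without KO-labelled mouse 3 edgeR called 4 genes and without WT-labelled mouse 5 it called 1, none of them a member. The share of heavy-chain constant UMIs that came from Igha was 97.7 ± 1.42% in KO-labelled mice, against 98.7 ± 1.38% in WT-labelled mice (mean ± SD of 4 each; p = 0.229 by exact permutation, adjusted over 6 such tests 0.943). With 4 mice against 4, the smallest p of this test is 0.0286, which over 6 tests adjusts to 0.171 for a single result, so none could have passed alone.

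Ighm was scarce in plasma cells and varied most in the KO-labelled group. It measured 21.4, 141, 389 and 142 CPM in KO-labelled mice 2, 3, 6 and 7, against 198, 222, 108 and 170 CPM in WT-labelled mice 1, 4, 5 and 8. The WT-labelled values lay inside the range of the KO-labelled ones. Its log2 difference was 0.01 ± 0.48 (SE, edgeR adjusted p = 0.9999), and it was -0.73 without KO-labelled mouse 6, -0.16 without WT-labelled mouse 5 and -0.053 without WT-labelled mouse 8. Its share of heavy-chain constant UMIs was 0.205 ± 0.217% in KO-labelled mice, against 0.169 ± 0.0626% in WT-labelled mice (mean ± SD of 4 each; p = 0.857 by exact permutation). Ighd had 5.23 ± 2.38 CPM in KO-labelled plasma cells, against 6.55 ± 4.23 CPM in WT-labelled plasma cells (mean ± SD of 4 each) and did not pass the filter on low counts.

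J chain was the steadiest of the plasma cell genes. Jchain measured 63333, 66309, 66962 and 71432 CPM in KO-labelled mice 2, 3, 6 and 7, against 58514, 59126, 68151 and 68418 CPM in WT-labelled mice 1, 4, 5 and 8. All 8 mice lay between 58514 and 71432 CPM, a narrower range than that of Igha, Igkc or Iglc1. The log2 difference was 0.07 ± 0.18 (SE, 95% interval -0.31 to 0.45, edgeR adjusted p = 0.9999). Jchain was not limited to cells with Igha. The 29 plasma cells led by an Ighg gene, which came from all 8 mice, had 50964 CPM of Jchain when pooled, against 66977 CPM in the 1489 cells led by Igha, although IgG is secreted without J chain. The 5 cells led by Ighm had 66934 CPM when pooled, but a median of 11891 CPM per cell and 1388 UMIs in the median cell, so that few cells carry the pooled value.

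**Figure D2:**
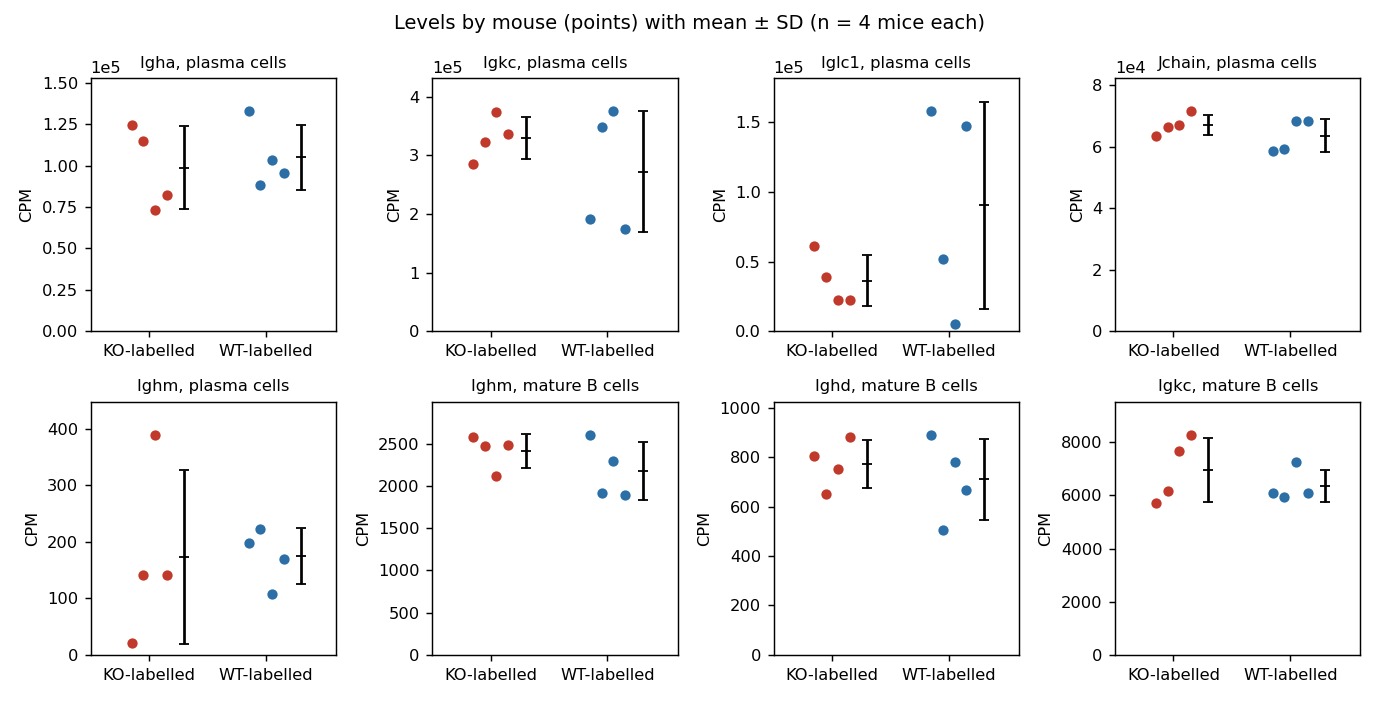
CPM per mouse (points; red KO-labelled, blue WT-labelled) of the 6 antibody genes in the cells that hold most of their UMIs, and of Igkc and Ighm in both plasma and mature B cells, with mean ± SD beside the points (n = 4 mice each). The groups overlap in each of the 8 panels; the points of Jchain lie closest together, and those of Iglc1 range from 4912 to 157692 CPM among the WT-labelled mice.

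The light chain differed widely between mice. Igkc measured 286210, 322336, 373469 and 335957 CPM in plasma cells of KO-labelled mice 2, 3, 6 and 7, against 191973, 348243, 375238 and 174746 CPM in WT-labelled mice 1, 4, 5 and 8. Iglc1 measured 60827, 39045, 22645 and 22657 CPM in KO-labelled mice 2, 3, 6 and 7, against 157692, 51506, 4912 and 147014 CPM in WT-labelled mice 1, 4, 5 and 8. WT-labelled mice 1 and 8 were low in Igkc and high in Iglc1, and WT-labelled mouse 5 was the reverse. Between the groups, the log2 difference was 0.24 ± 0.30 for Igkc and -1.24 ± 0.68 for Iglc1 (SE, edgeR adjusted p = 0.9999 for both, unadjusted 0.441 and 0.0906). The interval of the Iglc1 difference, -2.71 to 0.22, was wide, and the WT-labelled mice spanned the whole range of the 8. Leaving out 1 mouse at a time moved the difference between -1.65 and -0.74.

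The same held for cells as for UMIs. Of 1530 plasma cells with at least 10 light-chain constant UMIs, 173 had more lambda than kappa, which is 11.3% (exact binomial 95% interval 9.76 to 13.0%). In kappa cells the median share of Igkc among light-chain UMIs was 99.2%, and in lambda cells it was 1.16%. Over 90% of the light-chain UMIs came from the called type in 96.2% of kappa cells and 85.5% of lambda cells. Some kappa cells also held many Iglc1 UMIs, up to 6720 in 1 cell of WT-labelled mouse 1. By mouse, lambda cells were 26.1, 11.5, 6.57 and 4.13% in KO-labelled mice 2, 3, 6 and 7, against 38.6, 12.6, 2.77 and 45.0% in WT-labelled mice 1, 4, 5 and 8. The exact binomial 95% interval was 33.8 to 56.5% in WT-labelled mouse 8 and 1.27 to 5.19% in WT-labelled mouse 5, so that 2 mice of 1 group differed by far more than counting error. Across all light-chain constant UMIs, the lambda share was 12.9 ± 8.53% in KO-labelled mice, against 28.1 ± 23.0% in WT-labelled mice (mean ± SD of 4 each; p = 0.314 by exact permutation, adjusted 0.943). Intervals here cover counting error only, and which mice shared a litter or a cage is not given in the labels.

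**Figure D3:**
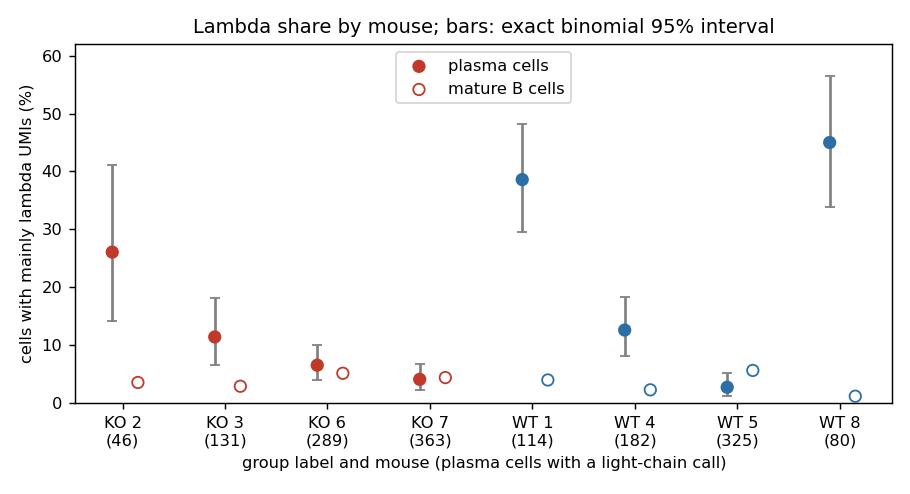
Share of cells whose light-chain constant UMIs are mainly lambda (y axis, percent) in each mouse (x axis, number of plasma cells with a call in brackets), with filled points for plasma cells, bars for their exact binomial 95% interval and open points for mature B cells (red KO-labelled, blue WT-labelled). Plasma cells range from 2.77 to 45.0%, while mature B cells stay between 1.22 and 5.67%.

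Mature B cells did not show this spread. With at least 5 light-chain UMIs required, the lambda share of mature B cells was 3.59, 2.94, 5.18 and 4.43% in KO-labelled mice 2, 3, 6 and 7, against 4.02, 2.32, 5.67 and 1.22% in WT-labelled mice 1, 4, 5 and 8. WT-labelled mouse 8, with the highest share in plasma cells, had the lowest in mature B cells, from 82 called cells. WT-labelled mouse 5, with the lowest share in plasma cells, had the highest in mature B cells. Among the 173 lambda plasma cells, 147 carried mainly Iglc1, 20 mainly Iglc3 and 6 mainly Iglc2. In WT-labelled mouse 1, the 44 lambda cells held 242288 Iglc1 UMIs, of which the richest cell held 14921, and in WT-labelled mouse 8 the 36 lambda cells held 87267, of which the richest held 10155. In WT-labelled mouse 5, by contrast, 1 of the 9 lambda cells held 5777 of their 10721 Iglc1 UMIs, and kappa cells of that mouse held a further 16175.

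The variable gene was read in the few plasma cells with at least 10 heavy-chain variable UMIs, a comparison chosen after the lambda values were seen. Ighv10-3 led in 1 of 3 such lambda cells of KO-labelled mouse 2 and in 0 of 2 each of KO-labelled mice 3 and 6, against all 7 of WT-labelled mouse 8, 5 of 14 of WT-labelled mouse 1, 3 of 5 of WT-labelled mouse 4 and 0 of 2 of WT-labelled mouse 5. KO-labelled mouse 7 had no lambda cell with so many variable UMIs. In kappa cells Ighv10-3 led in 0 cells of each mouse, and the most frequent gene was, for example, Ighv7-3 in 6 of 15 cells of KO-labelled mouse 3 and in 16 of 75 of WT-labelled mouse 5. With so few cells these counts are a description, and 3′-end reads seldom reach the variable region.

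Mature B cells expressed the unswitched pair. Ighm measured 2575, 2474, 2122 and 2485 CPM in KO-labelled mice 2, 3, 6 and 7, against 2602, 1918, 2299 and 1889 CPM in WT-labelled mice 1, 4, 5 and 8. Ighd measured 806, 652, 751 and 882 CPM in KO-labelled mice 2, 3, 6 and 7, against 889, 506, 780 and 668 CPM in WT-labelled mice 1, 4, 5 and 8. The groups overlapped for both genes, and WT-labelled mouse 4 was lowest in Ighd. The log2 difference was 0.13 ± 0.16 for Ighm and 0.10 ± 0.19 for Ighd (SE, edgeR adjusted p = 0.99995 for both), and that of Ighd was -0.029 without WT-labelled mouse 4. Of 9587 genes tested in mature B cells, 0 were called (0%) by edgeR and 0 by DESeq2, and 132 had an unadjusted edgeR p under 0.05.

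The Ighd share of the pair lay between 20.9 and 26.2% in each mouse, lowest in KO-labelled mouse 3 and WT-labelled mouse 4. Ighd supplied 23.8, 20.9, 26.1 and 26.2% of the Ighm and Ighd UMIs in KO-labelled mice 2, 3, 6 and 7, against 25.5, 20.9, 25.3 and 26.1% in WT-labelled mice 1, 4, 5 and 8. The group means were 24.3 ± 2.51% in KO-labelled mice, against 24.5 ± 2.40% in WT-labelled mice (mean ± SD of 4 each; p = 0.971 by exact permutation). In 64.5% of the mature B cells both genes had a UMI, in 28.4% Ighm alone, in 2.84% Ighd alone and in 4.32% neither. Igkc measured 6967 ± 1209 CPM in KO-labelled mature B cells, against 6342 ± 604 CPM in WT-labelled mature B cells (mean ± SD of 4 each), a log2 difference of 0.11 ± 0.17 (SE, edgeR adjusted p = 0.99995). Per cell type, Igkc was 6567 CPM in mature B cells and 337695 CPM in plasma cells, and Ighm was 2272 and 200 CPM.

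Igha and Jchain were seen in mature B cells about as often as in T cells, and no expression is read from them. After each cell was thinned to 500 UMIs, 12.5% of mature B cells had an Igha UMI, against 12.3% of T cells, which do not express the gene. Jchain was seen in 6.56% of mature B cells and 5.78% of T cells. The median depths before thinning were 1893 UMIs in mature B cells and 2404 in T cells. Iglc1, by contrast, was seen in 10.9% of mature B cells and 4.34% of T cells.

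The B progenitors lay between mature B cells and plasma cells in the pooled level of each antibody gene but Igkc, which was close to that of mature B cells. They carried Igkc at 6284 CPM, Iglc1 at 2094 CPM, Jchain at 1234 CPM, Ighm at 600 CPM, Igha at 570 CPM and Ighd at 41.3 CPM when pooled. Thinned to 500 UMIs, 34.2% had a Jchain UMI, against 5.78% of T cells, and 16.5% an Ighm UMI. An Igha UMI was found in 9.76%, against 12.3% of T cells. The progenitors were deeper, with medians of 3947 to 9138 UMIs in the mice with at least 20 of them, against 2404 in T cells. Thinning takes a larger part from deeper cells, so this comparison cannot decide whether they express Igha, and no Igha expression is read from it. Ighg1, another switched heavy chain, was at 1120 CPM. Among the mice with at least 20 such cells, Jchain measured 668 and 1312 CPM in KO-labelled mice 2 and 6, against 1852, 989 and 816 CPM in WT-labelled mice 1, 4 and 5. Iglc1 measured 550 and 500 CPM in KO-labelled mice 2 and 6, against 4713, 498 and 1633 CPM in WT-labelled mice 1, 4 and 5, so that the pooled Iglc1 level rests on WT-labelled mouse 1 and is 824 CPM without it. Igha measured 18.3 and 938 CPM in KO-labelled mice 2 and 6, against 1067, 127 and 290 CPM in WT-labelled mice 1, 4 and 5, and its pooled level is 329 CPM without WT-labelled mouse 1. Igha in mature B cells was 104 and 269 CPM in these KO-labelled mice, against 359, 190 and 616 CPM in these WT-labelled mice. The progenitors were thus below mature B cells in mice 2, 4 and 5, where the order of the pooled Igha level did not hold. In KO-labelled mouse 6, Ighm was at 325 CPM in the progenitors, below 389 CPM in plasma cells. Only 2 KO-labelled mice had enough of these cells, and the groups were not tested.

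Pigr was an epithelial gene throughout, at 2480 CPM in pooled epithelium. Outside the epithelium its highest level in a type of 50 or more cells was 193 CPM, in the T cells that the authors call inactive, whose median depth of 762 UMIs was the lowest among the T cell subtypes. In plasma cells it was 16.4 CPM. The level in epithelial cells was 1475, 2193, 2932 and 3054 CPM in KO-labelled mice 2, 3, 6 and 7, against 2535, 1889, 2570 and 2954 CPM in WT-labelled mice 1, 4, 5 and 8. The groups overlapped, with KO-labelled mouse 2 lowest and KO-labelled mouse 7 highest. The log2 difference was -0.08 ± 0.22 (SE, 95% interval -0.57 to 0.42, edgeR adjusted p = 0.99999), and it was 0.092 without WT-labelled mouse 1. Of 11723 genes tested in the epithelium, 0 were called (0%) by edgeR and 0 by DESeq2, and 96 had an unadjusted edgeR p under 0.05.

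Pigr was lower in cells rich in mitochondrial RNA in each of the 8 mice, but by less where mitochondrial UMIs were left out of the total. In epithelial cells with under 50% mitochondrial UMIs, Pigr was at 3141 ± 253 CPM in KO-labelled mice, against 3234 ± 760 CPM in WT-labelled mice (mean ± SD of 4 each). In cells with 50% or more, it was at 757 ± 239 CPM in KO-labelled mice, against 716 ± 284 CPM in WT-labelled mice. KO-labelled mice 2 and 3, which were low in Pigr, had 79.6 and 69.0% of their epithelial cells in the second class, against 18.5 and 13.6% in KO-labelled mice 6 and 7. The WT-labelled mice did not follow that order: mouse 1, with 78.8% of such cells, had a Pigr level close to that of mouse 5, with 37.2%, and above that of mouse 4, with 53.5%. Counted as CPM over genes other than the mitochondrial ones, Pigr was 3257, 3875, 3718 and 3753 CPM in KO-labelled mice 2, 3, 6 and 7, against 5262, 3035, 3608 and 3445 CPM in WT-labelled mice 1, 4, 5 and 8. On that scale the KO-labelled mice lay close together, and WT-labelled mouse 1 stood highest. Cells with under 50% mitochondrial UMIs then had 3917 ± 303 CPM in KO-labelled mice, against 4054 ± 1154 CPM in WT-labelled mice. Cells with 50% or more had 2688 ± 680 CPM in KO-labelled mice, against 2763 ± 1023 CPM in WT-labelled mice (mean ± SD of 4 each). The share of epithelial cells with a Pigr UMI at 500 UMIs per cell was 39.7 ± 11.1% in KO-labelled mice, against 42.6 ± 13.0% in WT-labelled mice (mean ± SD of 4 each; p = 0.743 by exact permutation). In cells with under 50% mitochondrial UMIs it was 52.4 ± 2.60% in KO-labelled mice, against 57.8 ± 11.03% in WT-labelled mice (p = 0.371 by exact permutation, 4 mice each).

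**Figure D4:**
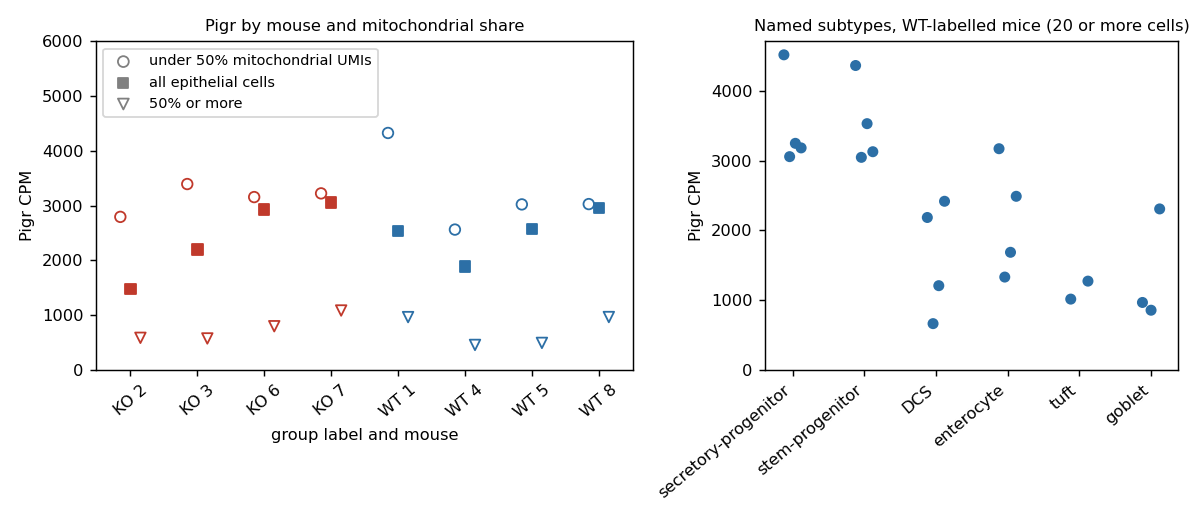
Left, Pigr CPM (y axis) in epithelial cells of each mouse, for all cells (squares), cells with under 50% mitochondrial UMIs (circles) and cells with 50% or more (triangles), red KO-labelled and blue WT-labelled. Right, Pigr CPM in the named epithelial subtypes of WT-labelled mice, 1 point per mouse with 20 or more cells; the progenitor subtypes lie at 3048 CPM or more in each WT-labelled mouse.

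Among the named epithelial subtypes, Pigr was highest in progenitors. The authors named epithelial subtypes in WT-labelled mice only, so that this is a description of those mice. Stem-progenitor cells had 4366, 3048, 3532 and 3129 CPM in WT-labelled mice 1, 4, 5 and 8, and secretory-progenitor cells had 4520, 3058, 3249 and 3184 CPM. In enterocytes Pigr was at 3172, 1330, 1685 and 2489 CPM in the same mice, below the stem-progenitor cells of each. Goblet cells, which make mucus, had 965, 854 and 2308 CPM in WT-labelled mice 4, 5 and 8, and tuft cells had 1013 and 1271 CPM in WT-labelled mice 5 and 8. The subtype the authors call DCS had 2185, 661, 1206 and 2417 CPM in WT-labelled mice 1, 4, 5 and 8.

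Part of that order depended on the scale, since CPM has mitochondrial UMIs in its total. The median mitochondrial share was 17.3% in stem-progenitor cells and 37.3% in enterocytes. As CPM without mitochondrial genes, pooled Pigr was 3937 in stem-progenitor cells, 3689 in secretory-progenitor cells, 3048 in enterocytes, 2225 in DCS cells, 1455 in tuft cells and 1331 in goblet cells. The 6727 cells of these mice without a subtype name, with a median mitochondrial share of 73.6%, were at 3489. That is above enterocytes, and their range over the mice was 2191 to 5065. Enterocytes then ranged from 2110 to 5222 over the WT-labelled mice and stem-progenitor cells from 3598 to 5649, so that these ranges overlapped. Goblet cells ranged from 1066 to 2641 and stayed below the stem-progenitor cells.

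Outside the B cells, much of the Igha, Igkc, Jchain and Iglc1 RNA was in a few droplets. A droplet was called mixed where 5% or more of its UMIs came from antibody constant genes and Jchain, which applied to 35 of 37064 cells outside the B class. With them, the pooled level over these cells was 340 CPM of Igha, 857 CPM of Igkc, 224 CPM of Jchain and 227 CPM of Iglc1. Without them it was 148 CPM of Igha, 269 CPM of Igkc, 61.0 CPM of Jchain and 39.9 CPM of Iglc1. Removing 10 of 659 macrophages took their pooled Igha to 287 CPM, against 3843 CPM with them. The richest 1% of the remaining macrophages still held 52.5% of their Igha UMIs. With mixed droplets, macrophage Igha was 37.2 to 177 CPM in KO-labelled mice 2, 3, 6 and 7. It was 3315 to 21530 CPM in WT-labelled mice 1, 4 and 5. Among dendritic cells, leaving out 2 of 33 took Igha to 203 CPM, against 14302 CPM with them, and in endothelium leaving out 3 of 265 took it to 220 CPM, against 1686 CPM. With mixed droplets, endothelial Igha was 130, 4523 and 3644 CPM in KO-labelled mice 3, 6 and 7. It was 240, 385 and 70.6 CPM in WT-labelled mice 4, 5 and 8. The groups were not tested in macrophages or endothelium. The 8 fibroblasts that the authors call SMA-positive, with 10935 CPM of Igha, are too few for any reading.

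The summed level of Igha, Igkc and Jchain in cells outside the B class was 371, 1199, 1333 and 1498 CPM in KO-labelled mice 2, 3, 6 and 7, against 1007, 1138, 3312 and 355 CPM in WT-labelled mice 1, 4, 5 and 8. WT-labelled mouse 5 was highest and WT-labelled mouse 8 lowest. The group means were 1100 ± 501 CPM in KO-labelled mice, against 1453 ± 1286 CPM in WT-labelled mice (mean ± SD of 4 each; p = 0.857 by exact permutation). Without WT-labelled mouse 5 the KO-labelled mean was higher, by 266 CPM. Without mixed droplets they were 428 ± 146 CPM in KO-labelled mice, against 512 ± 294 CPM in WT-labelled mice (mean ± SD of 4 each; p = 0.629 by exact permutation). Plasma cells made up 0.643, 1.83, 4.93 and 6.98% of the kept cells in KO-labelled mice 2, 3, 6 and 7, against 1.68, 1.86, 5.08 and 2.50% in WT-labelled mice 1, 4, 5 and 8.

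The antibody RNA outside the B class had a light-chain ratio that went with that of the plasma cells of the same mouse. Outside the B class and without mixed droplets, there were 0.600, 0.175, 0.150 and 0.154 Iglc1 UMIs per Igha UMI in KO-labelled mice 2, 3, 6 and 7, against 0.594, 0.813, 0.0259 and 0.872 in WT-labelled mice 1, 4, 5 and 8. In plasma cells the ratio was 0.488, 0.339, 0.310 and 0.276 in KO-labelled mice 2, 3, 6 and 7, against 1.19, 0.585, 0.0475 and 1.54 in WT-labelled mice 1, 4, 5 and 8. WT-labelled mouse 5 was lowest and WT-labelled mouse 8 highest in both, and the 4 highest mice were the same. Within a mouse, other cell types gave ratios of the same order. In WT-labelled mouse 5 it was 0.0255 in epithelium, 0.0252 in fibroblasts and 0.0357 in T cells, and in WT-labelled mouse 4 it was 0.823, 0.816 and 0.721. In WT-labelled mouse 8 it was 0.832, 1.43 and 1.09. The ratio of Igkc to Igha was lower outside the B class than in plasma cells in 7 of 8 mice, at 1.82 against 3.57 when pooled, and the cause was not tested.

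**Figure D5:**
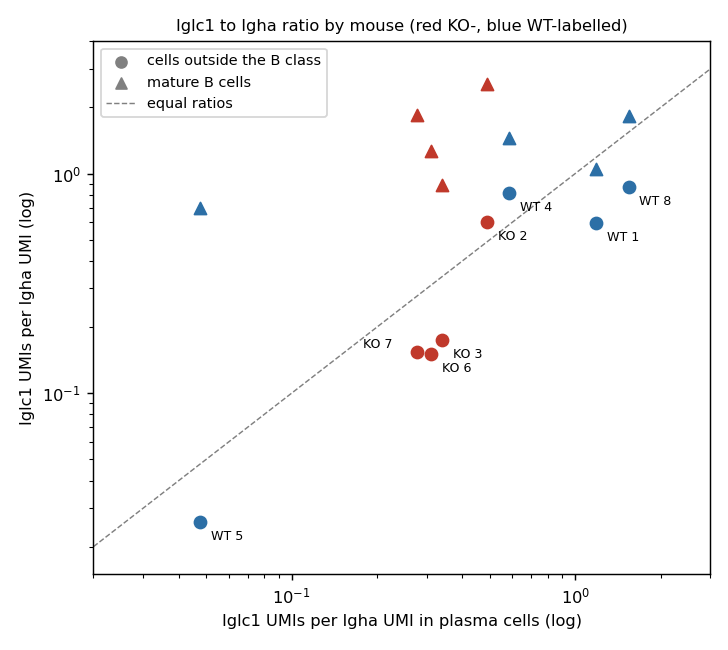
Iglc1 UMIs per Igha UMI in cells outside the B class without mixed droplets (circles, named by group label and mouse) and in mature B cells (triangles) on the y axis, against the same ratio in plasma cells of the same mouse on the x axis, both on log scales, with a dashed line where the ratios are equal. The circles rise from 0.0259 in WT 5 to 0.872 in WT 8, and the triangles lie between 0.69 and 2.55.

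Ighm outside the B class did not keep such a ratio. T cells had 122 CPM of Ighm and macrophages 172 CPM, against 5.44 CPM in fibroblasts and 15.6 CPM in epithelium. Thinned to 500 UMIs, 6.13% of T cells and 8.95% of macrophages had an Ighm UMI, against 0.319% of fibroblasts and 1.03% of epithelial cells, while Igha was seen in 12.3, 12.3, 7.25 and 10.7% of the same types. Ighm in T cells was measured in each mouse, at 183, 152, 97.9 and 89.2 CPM in KO-labelled mice 2, 3, 6 and 7, against 229, 114, 93.9 and 129 CPM in WT-labelled mice 1, 4, 5 and 8. For each UMI of Cd79a, a gene of mature B cells, there were 15.5 Ighm UMIs in T cells (1629 against 105) and 3.79 in macrophages, against 0.850 in mature B cells. For each Ighd UMI there were 15.7 Ighm UMIs in T cells and 10.2 in macrophages, against 3.20 in mature B cells. Epithelium, with 0.954 Ighm UMIs per Cd79a UMI and 2.69 per Ighd UMI, was near the mature B cells in both ratios. Among the T cell subtypes, pooled Ighm was at 205 CPM in regulatory and 185 CPM in activated T cells, at 94.8 CPM in memory cells and at 13.1 CPM in intraepithelial lymphocytes. By mouse, regulatory cells were below activated cells in KO-labelled mice 2 and 7 and WT-labelled mice 4 and 5. They were above them in KO-labelled mice 3 and 6 and WT-labelled mouse 1. Inactive T cells ranged from 45.4 to 183 CPM by mouse. The source of these UMIs was not tested.

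None of the members differed between the groups by the test across genes. In plasma, mature B and epithelial cells, 20 of 21 gene and cell set pairs passed the filter, and 0 were called. The groups overlapped for all 21, where 1.72% of the genes tested in plasma cells, 1.53% in mature B cells and 0.324% in epithelium did not overlap. The lowest unadjusted p was 0.00324, for Pigr in plasma cells, with 13.6 ± 4.79 CPM in KO-labelled mice, against 29.0 ± 13.0 CPM in WT-labelled mice (mean ± SD of 4 each; edgeR adjusted p = 0.9999). Levels there were below those of any other lymphoid or epithelial type but the proliferative T cells. Epithelial markers, of which 1 of 7 was at 0 in KO-labelled mouse 2 and none in the other mice, summed to 100.3 to 196 CPM in KO-labelled and 130 to 241 CPM in WT-labelled plasma cells, and their part in this value was not tested.

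Genes that act with the members were read from 4 lists. Of the plasma cell program, 17 genes were tested in plasma cells and 0 were called. The list holds regulators such as Xbp1 and Irf4 and the surface protein gene Sdc1, besides folding and secretion genes such as Mzb1 and Hsp90b1. Of the 17, 3 were fitted above and 14 below 0, with a median log2 difference of -0.09, against -0.00 over all genes. The lowest p among them was 0.00854, for Fkbp11 (edgeR adjusted p = 0.9999). Of 20 genes of IgA switching and homing, 8 were tested in plasma cells and 0 were called, with 5 fitted above and 3 below 0 and a median of 0.05. Among these, Ccr10, the receptor that guides IgA plasma cells to mucosa, was at 308 CPM in plasma cells and 0.3 CPM in mature B cells, and its ligand gene Ccl28 at 52.1 CPM in epithelium. Of 24 genes that induce Pigr or take up antibody, 17 were tested in epithelium and 0 were called, with 13 fitted above and 4 below 0 and a median of 0.04 against 0.00 over all genes. Il17a, a cytokine known to raise Pigr, was at 119 CPM in T cells, and Il17rc, a part of its receptor, at 89.5 CPM in epithelium. Of 8 further antibody constant genes, 5 were tested in plasma cells and 0 were called, with 5 fitted above and 0 below 0 and a median of 0.42. No gene of the 4 lists was called in the other cell sets either, by edgeR. Fcmr, the Fc receptor for IgM, was at 629 CPM in mature B cells, and Fcamr, a receptor for IgA and IgM, at 0.3 CPM in epithelium.

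The genes most like each member in their pattern were found by the correlation of log2 (CPM + 1) over the 26 cell types of at least 50 cells, among 13309 genes. These types share libraries and free RNA, and the values are a description. For Igha they were Jchain (r = 0.96), Tnfrsf17 (0.95) and Ccr10 (0.91), and for Jchain, Tnfrsf17 (0.93), Ccr10 (0.87) and Prg2 (0.87). For Ighm they were H2-DMa (0.897), Ncf1 (0.896) and Map4k1 (0.884), which are also expressed by other blood cells, and for Ighd, Fam129c (0.897), H2-DMb2 (0.886) and H2-Eb2 (0.869). For Pigr they were Gm5485 (0.982), Hoxb13 (0.981), a homeobox gene of the distal gut, and Lgals4 (0.980), a galectin of the intestinal epithelium.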

How the data were processed

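The deposited matrix holds raw counts of UMIs, not normalized by the authors. The deposited cell table gives size factors, a ratio per cell computed by the authors, and their cell type names. Per the submitters' processing notes, Cell Ranger 3.0.2 and mm10 were used; how cells were filtered and named is not given in the sources used here. Table and matrix list cells in different orders, and 53080 of 53080 size factors matched the totals (relative tolerance 1e-06) after sorting by mouse and barcode, against 16 in file order.

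Mice were the replicates. For each set with 20 or more cells, UMIs of a mouse were added up and tested with edgeR 4.0.16 in R 4.3.3. The settings were TMM, filterByExpr, the quasi-likelihood F test and a Benjamini-Hochberg threshold of 0.05. DESeq2 1.42.0 served as an alternative. The edgeR fit was tried on simulated data, and DESeq2 was not. Printed CPM are plain ratios of sums. Shares were compared by two-sided exact permutation over 70 assignments. For detection, cells were thinned to 500 UMIs, and isotype calls needed 10 constant-region UMIs. Other steps used pandas 2.3.3, matplotlib 3.10.9, scipy 1.17.1 and numpy 2.4.6 in Python 3.11.15, and positions and sequences came from GENCODE M21. B progenitors were not tested, with too few cells in KO-labelled mice.

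The members and lists were chosen with earlier results of these data known. Genes named are the members, the lists, and the 3 genes most like each of 5 members, with immunoglobulin genes left out of that search.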

Additional observations from a re-analysis of the deposited data

Results flagged for a closer look

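Of 30 group and measure pairs with 4 mice each, 3 held a mouse whose gap to the nearest other mouse took up most of the group's range. Chance flags about 1 in 20 such groups. In mature B cells, Igkc was at 7243 CPM in WT-labelled mouse 5, above 6090, 6082 and 5952 CPM in WT-labelled mice 1, 8 and 4; KO-labelled mice reached 8270 CPM. The same mouse had the lowest Igha share of heavy-chain constant UMIs among WT-labelled plasma cells, at 96.7%, against 99.2 to 99.7% in the other WT-labelled mice. WT-labelled mouse 4 had the lowest Ighd share of Ighm and Ighd UMIs among WT-labelled mature B cells, at 20.9%, against 25.3 to 26.1% in the others, and KO-labelled mouse 3 had 20.9% as well.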

How the results depend on the processing

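No paired analysis was possible because KO-labelled and WT-labelled mice share no replicate numbers. Keeping doublets would leave the plasma, mature B and epithelial sets unchanged, since no cell named a doublet carried such a name. Its effect on the levels outside the B class was not examined, and this alternative was not run. Library factors, the choice of tool, the library total without antibody genes, the term for mice 1 to 4 against 5 to 8, thinning, the mitochondrial limit, the means over cells and the smaller minimum for calls kept the direction and the side of the threshold of all results but the following. The log2 difference of Ighm in plasma cells turned to -0.043 with DESeq2 and to -0.096 with the term for mice 1 to 4. Without a filter on low counts, 11 genes were called in plasma cells and 2 in mature B cells. Without mixed droplets, the pooled levels outside the B class all fell, to 148 CPM of Igha, 269 CPM of Igkc, 61.0 CPM of Jchain and 39.9 CPM of Iglc1. Mixed droplets were defined by these same genes, so a fall of their sum was fixed in advance and only its size is a result. The mitochondrial limit for the share of cells with Pigr, its unthinned value and the total without mitochondrial genes were chosen after seeing the data.

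Leaving out 1 mouse at a time gave log2 differences of -0.25 to 0.079 for Igha, -0.73 to 0.33 for Ighm, 0.04 to 0.46 for Igkc, -1.65 to -0.74 for Iglc1 and 0.05 to 0.14 for Jchain in plasma cells. It gave 0.03 to 0.20 for Ighm, -0.029 to 0.21 for Ighd and 0.02 to 0.23 for Igkc in mature B cells, and -0.17 to 0.092 for Pigr in epithelium. Calls in plasma cells ranged from 0 to 4, with 4 without KO-labelled mouse 3 and 1 without WT-labelled mouse 5. Differences of shares, KO-labelled minus WT-labelled, ranged from -1.70 to -0.50 percentage points for Igha, -0.067 to 0.099 for Ighm, -23.4 to -8.58 for lambda, -1.38 to 0.94 for Ighd and -6.88 to 3.26 for cells with Pigr, and from -719 to 266 CPM for antibody RNA outside the B class. No member passed the threshold in any of these, with adjusted p between 0.343 and 1.00.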
